A study of Homo sapiens with 2 samples.

Results

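The genes described here are the 10 core genes of canonical Wnt signalling inside the cell: CTNNB1, which encodes beta-catenin, APC, AXIN1, AXIN2 and GSK3B of its destruction complex, the TCF/LEF factors TCF7, TCF7L1, TCF7L2 and LEF1, and the target gene MYC. They were chosen by name, and every transcript row that carried one of these names as its gene was taken. All 10 were on the array, with 18 of its 45033 transcript rows and 10 of its 23595 named genes. The study measured total RNA of Panc1, an established human pancreatic ductal carcinoma line, after 24 h with DMSO, the solvent control, or with clofibrate, a lipid-lowering fibrate and ligand of the nuclear receptor PPARalpha. Each treatment was 1 sample on 1 Cy3-labelled NimbleGen array, and the labels give no dose of clofibrate. With 1 array a treatment there is no replicate spread and no test, so every difference below is a description of these 2 arrays.

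Beta-catenin has a pair of jobs, as a link between cadherins and the actin skeleton and as a coactivator in the nucleus. Without a Wnt signal, the scaffolds axin and APC hold it for phosphorylation by casein kinase and GSK3, after which it is ubiquitinated and degraded. A Wnt signal disables this complex, and the beta-catenin that builds up joins TCF/LEF proteins on DNA and switches on genes such as AXIN2, LEF1, TCF7 and MYC. The control is largely on the protein, so the RNA level of CTNNB1 does not give the activity of the pathway. Wnt signalling takes part in the growth of pancreatic ductal cancers.

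All values are log2 intensities as summarised by RMA, and all differences are clofibrate minus DMSO. A row is the summary of 3 probes for 1 transcript. Rows of different genes have different probes, so their levels do not rank the genes by RNA amount. The random probes on the arrays, a measure of background, read 5.61 with DMSO and 5.59 with clofibrate, and all 18 member rows lay above them on both arrays. A row was called bright where its mean over both arrays reached the median of all rows (8.65), and a gene where the mean of its rows reached the median of all genes (8.51). By that rule 16 of the 18 rows and 9 of the 10 genes were bright, the exceptions being the APC row, the dimmer LEF1 row and the gene APC. The SD of the difference over rows of like level is given as a scale for each value. It covers rows on this 1 pair of arrays and is not an error between replicates. The share of all rows that exceed their SD was not counted, so passing it is not a call. In RNA from a whole culture, fewer cells that make a transcript and less transcript in each cell cannot be told apart.

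Of the duct and epithelial markers KRT8, KRT18, KRT7, KRT19, EPCAM, CFTR, MUC1 and SOX9, only the first 2 were bright. KRT7, EPCAM, MUC1 and SOX9 read between 7.73 and 8.42 on the 2 arrays, above the random probes but below the bright set. KRT19 read 5.65 and 5.12 and CFTR 5.44 and 5.58, both near the random probes. No acinar, islet, endothelial, leukocyte or hepatocyte marker was bright, and of 5 fibroblast markers COL1A1 and ACTA2 were. The median intensity of all rows was 402 on both arrays.

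No row of the 10 genes differed 2-fold between the treatments, against 2.94% of all transcript rows. One of the 18 differed at least 1.5-fold, the dimmer LEF1 row, against 12.8% of all rows. These shares include dim rows, where differences spread more widely, while 16 of the 18 rows were bright. Of the 16 bright rows 0 differed 1.5-fold. Over bright genes, each the mean of its rows, 2.64% differed at least 1.5-fold and 0.246% at least 2-fold. Means over rows are not like for like with single rows, and the share over all bright rows was not counted. Of the 18 rows, 14 lay below 0 and 4 above it, and their median was -0.11. Over all transcript rows 49.5% lay below 0 and the median was 0.00. The rows ran from -0.85 to 0.18. The values furthest from 0 were in LEF1 and TCF7L2, both TCF/LEF factors.

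**Figure D1:**
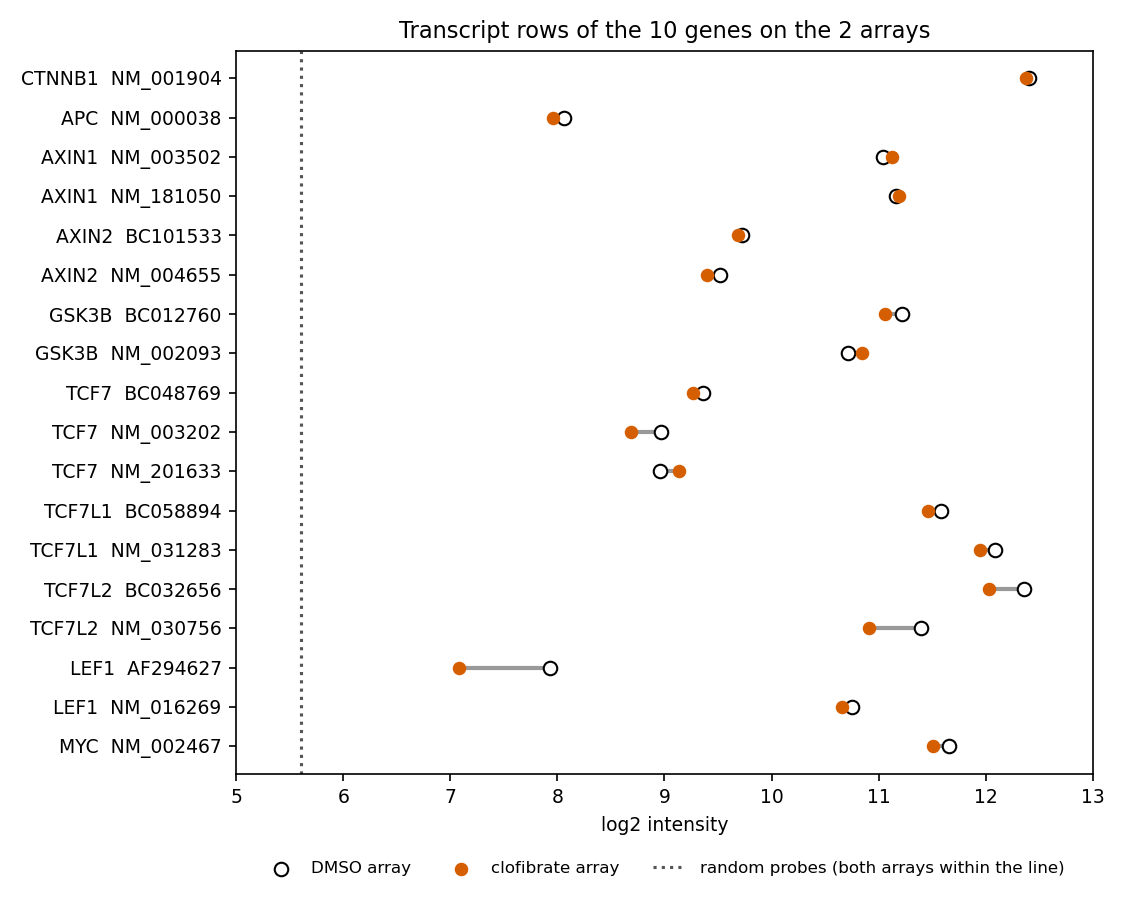
Log2 intensity of the 18 transcript rows of the 10 genes on the DMSO array (open circles) and the clofibrate array (filled circles), each joined by a line, with the random probes as a dotted line. The circles of most rows nearly coincide, and the longest lines are those of LEF1 AF294627 (-0.85) and the TCF7L2 rows (-0.48 and -0.32).

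Beta-catenin was measured by 1 row, NM_001904, on chromosome 3 from 41216003 to 41256938 (hg18). CTNNB1 read 12.40 with DMSO and 12.38 with clofibrate, intensities of 5405 and 5318. This is a difference of -0.02, where rows of like level had an SD of 0.23. The row was among the strongest on the array, 111 times the random probes on both arrays, so background adds little to this value.

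The destruction complex rows lay on both sides of 0, 3 above and 4 below, with a median of -0.04 and a range of -0.16 to 0.14. AXIN1, the scaffold that is limiting for assembly of the complex in Xenopus, was measured by 2 rows on chromosome 16 (277440 to 342465). NM_003502 of AXIN1 read 11.04 and 11.13, a difference of 0.09. NM_181050 read 11.16 and 11.19, a difference of 0.02. Both AXIN1 rows were thus slightly higher with clofibrate, by less than the SD of 0.24 for rows of like level.

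AXIN2, a second scaffold and itself a direct TCF target that serves as negative feedback, was measured by 2 rows on chromosome 17. The AXIN2 row BC101533 (60956539 to 60985269) read 9.73 and 9.69, a difference of -0.04. The AXIN2 row NM_004655 (60955142 to 60988227) read 9.52 and 9.39, a difference of -0.13. AXIN2 is often read as a sensor of pathway output, and both its rows were slightly lower with clofibrate, within the SDs of 0.30 and 0.31. A dim row without a symbol that overlaps AXIN2, BC006295, was higher, by 0.55 where the SD was 0.54. It was not counted as AXIN2.

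GSK3B encodes the kinase that marks beta-catenin for destruction, and its 2 rows differed in sign. The GSK3B row BC012760 (chromosome 3, 121028214 to 121295954) read 11.22 and 11.06, a difference of -0.16. The row NM_002093 (121028232 to 121295203) read 10.71 and 10.85, a difference of 0.14. Both rows were bright and cover nearly the same span, and their mean was -0.01, so the array gives no direction for GSK3B.

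APC, the tumour suppressor that binds beta-catenin and axin, was measured by the single row NM_000038 on chromosome 5 (112101482 to 112209835). It read 8.06 and 7.96, intensities of 266 and 249, a difference of -0.10 where rows of like level had an SD of 0.41. This was the only gene of the 10 that was not bright, at 5.47 and 5.18 times the random probes.

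The TCF/LEF factors bind DNA through an HMG box and carry beta-catenin to its targets, or Groucho/TLE repressors where beta-catenin is missing. Their 9 rows held the lowest values of the 10 genes. Of these, 8 lay below 0, the exception being 1 row of TCF7, and the median was -0.14. Only TCF7L2 had bright rows that were lower by more than the SD of rows of like level.

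TCF7L2, also called TCF4, is the main beta-catenin partner in intestinal epithelium. Its row BC032656 (chromosome 10, 114700420 to 114916051) read 12.36 with DMSO and 12.03 with clofibrate, intensities of 5245 and 4192. Its row NM_030756 (114700200 to 114916063) read 11.39 and 10.91, intensities of 2687 and 1923. Both TCF7L2 rows were lower with clofibrate, by -0.32 and -0.48, or 1.25-fold and 1.40-fold. The SD of rows of like level was 0.23 for the first and 0.24 for the second, so both differences exceeded it. How many rows of other genes do the same was not counted, so this does not set TCF7L2 apart on the arrays. Neither row reached 1.5-fold, and as a gene TCF7L2 was at -0.40.

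TCF7L1, also called TCF3, acts mostly as a repressor in mouse embryonic stem cells. The TCF7L1 row BC058894 (chromosome 2, 85214093 to 85390149) read 11.58 and 11.46, a difference of -0.12. The TCF7L1 row NM_031283 (85214244 to 85391016) read 12.08 and 11.95, a difference of -0.14. The rows agreed closely with each other, and both values lay within the SD of 0.23.

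TCF7, also called TCF1, is best known from T cells and is itself a target of the pathway. Its 3 rows on chromosome 5 did not share a direction. The TCF7 row NM_003202 (133478300 to 133511819) read 8.96 and 8.69, a difference of -0.28. The TCF7 row BC048769 (133478300 to 133511563) read 9.36 and 9.27, a difference of -0.09. The third, NM_201633, begins further into the gene, at 133479214, and read 8.96 and 9.14, a difference of 0.18. The mean was -0.06, and the gap of 0.46 between the highest and the lowest row was larger than the value of any of the 3. The SDs of rows of like level were 0.36, 0.32 and 0.34, above each of the 3 differences.

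LEF1, a factor of lymphoid and hair follicle cells that Wnt signalling can induce, had 2 rows of unequal brightness on chromosome 4. NM_016269 of LEF1 (109188149 to 109309027) read 10.75 and 10.66, intensities of 1721 and 1613, a difference of -0.09. AF294627 (109204234 to 109308372) read 7.93 and 7.08, intensities of 245 and 136. Its difference of -0.85, or 1.80-fold, was 1.60 times the SD of 0.53 at that level. This row stood at 5.02 times the random probes with DMSO and 2.82 times with clofibrate, against 35.3 and 33.5 times for the brighter row. The gene mean of -0.47 thus rests on the dim row, and the brighter row alone gave -0.09.

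**Figure D2:**
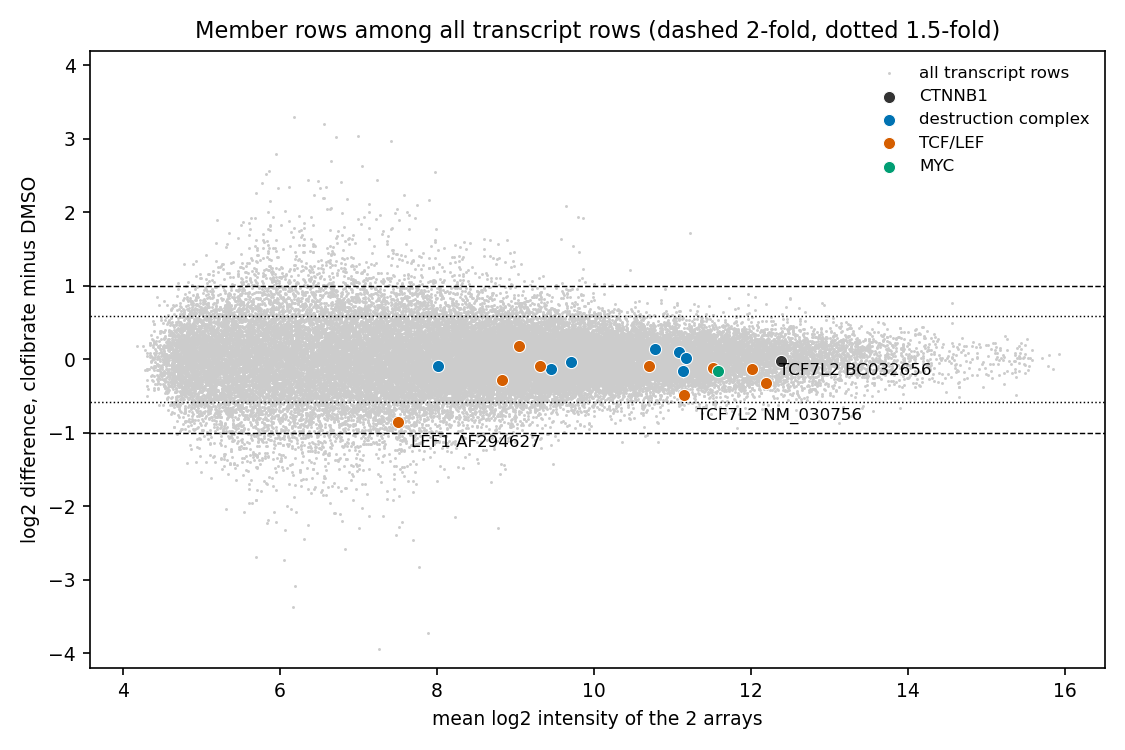
Log2 difference, clofibrate minus DMSO, against the mean log2 intensity of the 2 arrays for all transcript rows (grey) and the rows of the 10 genes (colours by role). All 18 rows lie between the dashed 2-fold lines, and LEF1 AF294627 alone lies beyond the dotted 1.5-fold lines, at a level where the grey cloud is wide.

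MYC, a transcription factor for growth and ribosome genes and a TCF target in colon cells, was measured by NM_002467 on chromosome 8 (128817497 to 128822856). It read 11.66 with DMSO and 11.51 with clofibrate, intensities of 3239 and 2909. The difference of -0.16 was below the SD of 0.23 for rows of like level. NOL3 carries MYC among its older names in the files and was not counted as MYC.

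Agreement between rows of a gene is the only repeat measurement the arrays offer, and it repeats the probes, not the culture. Of the 7 member genes with 2 or more rows, 5 had all rows on 1 side of 0: AXIN1 above it, and AXIN2, TCF7L1, TCF7L2 and LEF1 below it. Over all 11864 genes with 2 or more rows, 46.2% had all rows on 1 side, and over the bright ones 51.0%. The median gap between the highest and the lowest row was 0.16 in the member genes and 0.29 in bright genes. These members had 2 or 3 rows each, while the wider sets include genes with more. More rows make 1 shared side less likely and the gap wider, so the sets are not like for like.

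The start of the 2 array transcripts of TCF7L2 was compared with the start sites in RefSeq, because the gene has several. RefSeq (GRCh38.p14) lists starts for TCF7L2 at 217, 41.0 and 38.4 kb from the end of the gene. The array rows span 216 kb on hg18, so of these starts only the first lies far enough upstream for them. The APC row spans 108 kb, as far as the second RefSeq start of APC lies from the end of the gene (108 kb), while the first lies at 139 kb. Promoter sequence was found for 8 of the 10 genes, with 12 starts, and not for AXIN2 and MYC. The 250 bases before each start were searched on both strands for the TCF/LEF cores CTTTGA and CTTTGT, for the half-site AGGTCA of nuclear receptors such as PPARalpha and for the E-box CACGTG bound by MYC and MAX. The letters CTTTGA were in none of the 12 windows, against 11.2% of all 35116 RefSeq windows of that length. CTTTGT was in 2 of them (13.7% of all windows), the second starts of TCF7 and TCF7L2. AGGTCA was also in 2 (12.1%), the first start of TCF7 and the third of TCF7L2, and CACGTG in 1 (6.34%), the second start of APC. The searched motifs do not overlap each other in these windows. A match is a match of letters and not a shown site, and the absence of a match says nothing about the factor.

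The windows below are those of the 2 genes with the lowest values and 1 example of a match to each motif found, read 5′ to 3′ on the strand of the gene, with each match in capitals. They are the first TCF7L2 start (chr10:112949997-112950246, plus strand), which the array rows reach, the second TCF7L2 start (chr10:113126383-113126632, plus), which lies too near the end of the gene for them, LEF1 (chr4:108166302-108166551, minus), the first TCF7 start (chr5:134115363-134115612, plus) and the second APC start (chr5:112737635-112737884, plus).
TCF7L2 first start: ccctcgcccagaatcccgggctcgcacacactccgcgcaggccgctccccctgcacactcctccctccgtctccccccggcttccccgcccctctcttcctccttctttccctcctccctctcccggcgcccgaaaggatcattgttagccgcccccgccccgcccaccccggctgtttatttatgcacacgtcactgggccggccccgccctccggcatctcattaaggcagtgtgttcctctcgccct
TCF7L2 second start: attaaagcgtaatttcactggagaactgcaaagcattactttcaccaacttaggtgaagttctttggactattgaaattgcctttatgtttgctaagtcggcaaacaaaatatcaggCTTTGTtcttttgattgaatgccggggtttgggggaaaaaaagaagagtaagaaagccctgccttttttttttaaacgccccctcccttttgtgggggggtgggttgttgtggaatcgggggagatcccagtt
LEF1: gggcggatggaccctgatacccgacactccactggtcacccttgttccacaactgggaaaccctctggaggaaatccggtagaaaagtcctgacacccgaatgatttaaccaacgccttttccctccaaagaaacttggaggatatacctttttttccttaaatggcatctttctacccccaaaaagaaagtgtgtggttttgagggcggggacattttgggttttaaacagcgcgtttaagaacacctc
TCF7 first start: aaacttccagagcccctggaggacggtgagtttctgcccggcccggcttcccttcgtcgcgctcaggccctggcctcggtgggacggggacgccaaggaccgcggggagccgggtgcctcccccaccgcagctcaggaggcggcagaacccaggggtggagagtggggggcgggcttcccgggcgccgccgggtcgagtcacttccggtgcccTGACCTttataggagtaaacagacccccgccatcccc
APC second start: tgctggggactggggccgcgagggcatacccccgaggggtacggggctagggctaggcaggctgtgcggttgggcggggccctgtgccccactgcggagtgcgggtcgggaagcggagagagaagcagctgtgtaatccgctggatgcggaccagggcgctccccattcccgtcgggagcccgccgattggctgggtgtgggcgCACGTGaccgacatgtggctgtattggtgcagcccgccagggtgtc
In the second TCF7L2 window CTTTGT begins 133 bases before the start. In the TCF7 window the half-site, read there as TGACCT, begins 37 bases before the start, and in the APC window CACGTG begins 46 bases before it. The first TCF7L2 window and the LEF1 window hold none of the searched motifs. RefSeq places the LEF1 start 119 kb from the end of the gene, and the LEF1 rows span 121 and, for the dim row AF294627, 104 kb. LEF1 is on the minus strand, so on hg18 the rows start close together, at 109309027 and, for the dim row, 109308372. The shorter span of the dim row comes mostly from its other end, 109204234 against 109188149. Whether either row begins at the RefSeq start was not tested.

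Long genes tended to read lower on the clofibrate array, and several of the 10 genes are long, so each value was set beside genes of like span. In the longest 10% of bright genes, those over 89.8 kb, the median difference was -0.09, and 65.4% of genes lay below 0. The rows of APC, GSK3B, TCF7L1, TCF7L2 and LEF1 fall in that group. The TCF7L1 rows (-0.12 and -0.14), the brighter LEF1 row (-0.09) and the APC row (-0.10) were within 0.05 of its median. The GSK3B rows lay -0.07 and 0.23 from it. The TCF7L2 rows lay -0.23 and -0.39 from it, and the dim LEF1 row -0.76. The APC row and the dim LEF1 row were not bright, so they are set here beside brighter genes. MYC is short, at 5.36 kb, and stood -0.23 from the median of its span group (0.08). The AXIN1 rows stood 0.17 and 0.10 from theirs (-0.08), and the CTNNB1 row 0.00 from its own (-0.03). For AXIN2 and TCF7 the group median was 0.00. The AXIN2 rows stood -0.04 and -0.13 from it, and the TCF7 rows -0.09, -0.28 and 0.18. With the trend on span removed, the 18 rows had a median of -0.05 in place of -0.11, the TCF/LEF rows -0.08 in place of -0.14, and TCF7L2 differences of -0.25 and -0.41. The part of span in the members' values was not tested.

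**Figure D3:**
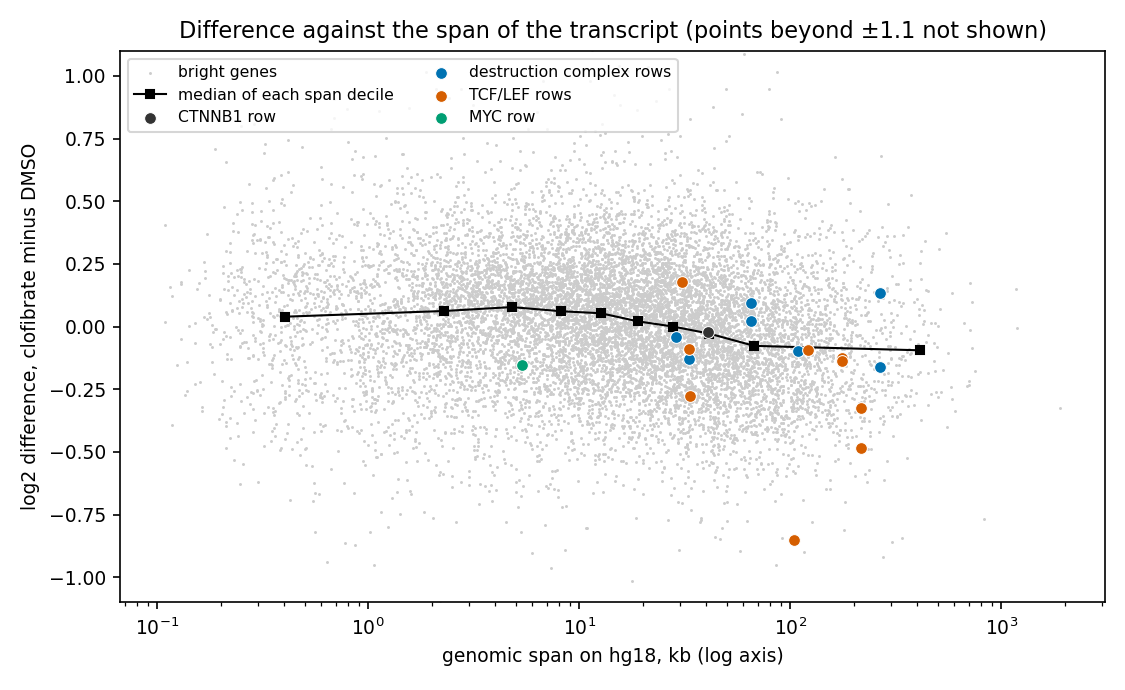
Log2 difference against genomic span on hg18 (log axis) for bright genes (grey), with the median of each span decile (black squares) and the rows of the 10 genes in colour. The medians go from 0.08 in the third decile to -0.09 in the longest. The dim LEF1 row, the TCF7L2 rows, TCF7 NM_003202 and the MYC row lie furthest below that line, and the other rows lie on both sides of it.

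Genes around the 10 were read as lists by role, with the mean of a gene's rows and over bright genes. Among all bright genes the median was 0.01, 47.9% lay below 0, 2.64% differed at least 1.5-fold and 0.246% at least 2-fold. The further destruction complex list, its kinases, phosphatase subunits and ubiquitin ligase parts, had 13 bright genes of 18. Of these, 10 lay below 0 and 3 above, with a median of -0.11 and none past 1.5-fold. Taking each gene's brightest row gave a median of -0.25, and it was -0.04 over genes above the 75th percentile of level, below 0 in both. APC2, a relative of APC, was at -0.54 (9.59 and 9.05). RNF146, the ligase that removes tankyrase-marked axin, was at -0.48, with rows at -0.71 and -0.26. CUL1, the cullin of the ligase that takes beta-catenin, was at -0.41 (rows -0.61 and -0.21). BTRC, the F-box protein that recognises phosphorylated beta-catenin, was at -0.29 (rows -0.45 and -0.13). The 3 last genes were lower in both of their rows. GSK3A, the second GSK3 gene, was at 0.23, with both rows above 0.

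The relay from the receptor to the complex, Dishevelled genes, coreceptors and their regulators, had 14 bright genes of 16, 10 above 0 and 4 below, with a median of 0.16. FRAT2, which binds GSK3 and draws it from axin, was at 0.46 (10.40 and 10.86), and the coreceptor gene LRP5 at 0.40. CXXC4, an inhibitor of Dishevelled, was at -0.31 and DACT2, which binds it, at -0.30. DVL1 was at 0.25 with its 3 rows all above 0, while the rows of DVL3 ran from -0.14 to 0.57. With the brightest row of each gene in place of the mean the list median was -0.09, with 4 of 15 genes above 0, so the list has no direction that holds over its rows.

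The junction partners of beta-catenin had 6 bright genes of 11, 3 on each side of 0, with a median of 0.01. That median was -0.12 when each gene's brightest row was taken, -0.07 with no filter on level and -0.08 above the 75th percentile of level, so it has no settled side. N-cadherin, CDH2, was at -0.28 (11.70 and 11.41) and plakoglobin, JUP, a close relative of beta-catenin, at 0.17 with its 3 rows above 0. PKP3 was at 0.21 and CDH3 at 0.09. PKP2, a desmosome plakophilin, was the single gene of these lists past 2-fold, at -1.05 (8.44 and 7.39) from 1 row. It was not bright, its SD of like level was 0.40, and of all genes at any level 1.94% were past 2-fold. E-cadherin, CDH1, was dim, at 7.38 and 7.47, with rows from -0.65 to 0.54.

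Nuclear partners of the TCF/LEF factors had list medians close to 0. The 12 bright coactivators of 13 had a median of -0.02, 4 above 0 and 8 below. The acetyltransferase genes EP300 and CREBBP were at -0.28 and 0.27, the second with rows at 0.04 and 0.51. The Mediator genes MED12 and CDK8 were at 0.21 and -0.18, the second with rows from -0.41 to 0.04. The 11 bright repressors and inhibitors of 17 had a median of 0.01, 6 above and 5 below. TLE3, a Groucho corepressor that TCF proteins bind, was at 0.36 (10.06 and 10.42), and its 4 rows lay between 0.20 and 0.47. CTBP1 was at 0.17, TLE5 at 0.15, with rows from -0.04 to 0.27, and HDAC1 at -0.18. TLE3 was higher in every row and TCF7L2 lower in every row, in 1 pair of cultures. A link between these differences was not tested.

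Target genes did not share a direction. Of 30 TCF targets besides the 10 genes, 17 were bright, 10 above 0 and 7 below, with a median of 0.02. ASCL2, a stem cell factor of the gut, was at 0.63 (8.63 and 9.26) and FOSL1, an AP-1 gene, at -0.72 (9.51 and 8.79), the 2 bright targets past 1.5-fold, each from 1 row. Among the dim targets SP8 was at 0.76 and APCDD1 at -0.59, both also past 1.5-fold. PPARD, a nuclear receptor gene, was at 0.54, also from 1 row. VEGFA was at 0.47, a mean over 5 rows whose brightest was at -0.05, while its other rows ran from 0.27 to 1.14. CCND1, a cell cycle gene, was at -0.07, with rows at -0.23 and 0.09.

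The MYC network had 14 bright genes of 18, with a median of 0.01, 8 above 0 and 6 below. MAX, the partner with which MYC binds DNA, was lower in each of its 8 rows, which lay between -0.44 and -0.16. As a gene MAX read 11.69 and 11.41, a difference of -0.27 where genes of like level had an SD of 0.21. MYCBP2 was at -0.27, MYCBP at -0.25 and MGA, which also pairs with MAX, at -0.17. The 20 MYC target genes, all bright, had a median of 0.02, with 12 above 0 and 8 below. SHMT2, of one-carbon metabolism, was at 0.36 and RCL1, of ribosome synthesis, at 0.35, while EIF4E, the cap-binding factor, was at -0.34 and POLR1B, of RNA polymerase I, at -0.34. Each of these 4 had all its rows on 1 side of 0.

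**Figure D4:**
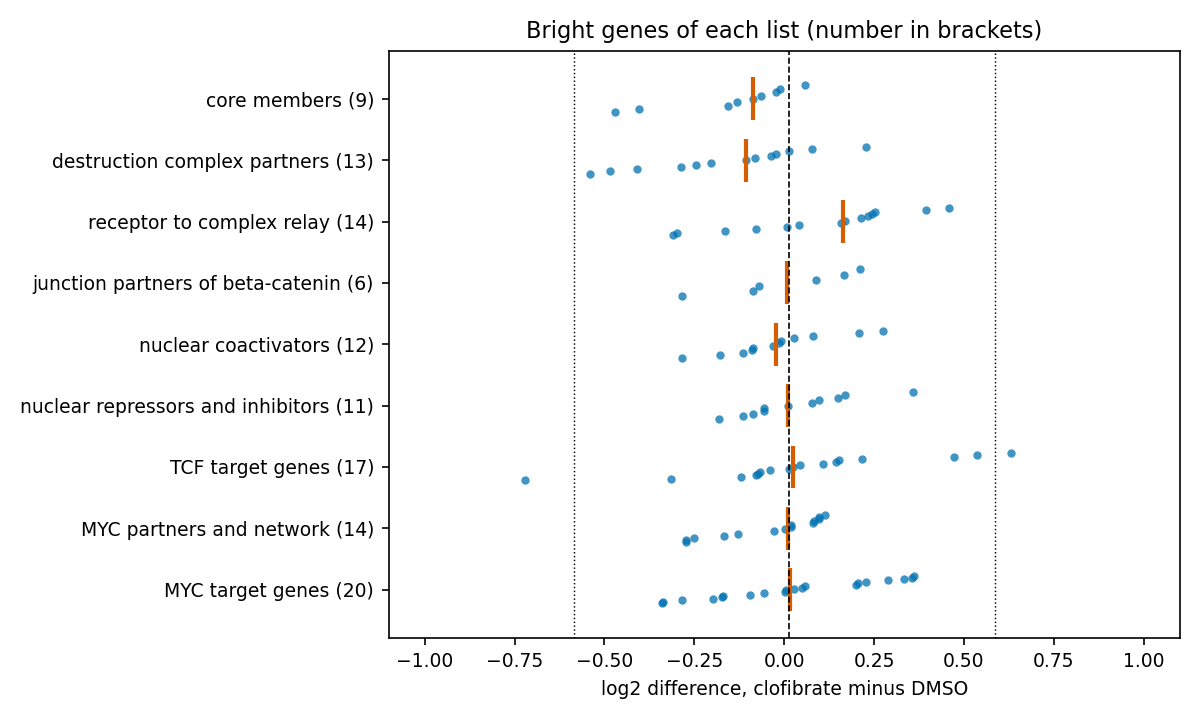
Log2 difference of each bright gene (dots) in the 10 genes and in 8 lists of genes around them, with the median of each list (orange bar), the median of all bright genes (dashed line) and 1.5-fold (dotted lines). FOSL1 (-0.72) and ASCL2 (0.63) among the TCF targets are the only dots beyond the dotted lines.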

How the data were processed

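Per the labels, total RNA of Panc1 cells was labelled with Cy3 and hybridised to 1-colour NimbleGen arrays, 1 for DMSO and 1 for clofibrate. The authors deposited linear intensities, 1 a transcript row. The submitters' processing notes name RMA without settings. RMA as usually run equalises arrays, so it can hide a shift shared by most genes. Per the file headers each member row summarises 3 probes, and positions are on hg18. The deposited series table held the same values.

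Intensities were converted to log2 and differences taken as clofibrate minus DMSO. Gene IDs of 38916 rows matched RefSeq (GRCh38.p14), used for current symbols, and 42947 rows had a symbol. The SD over features of like level used 40 equal bins. No test was run, since a group was 1 array, and that number sets the precision. The 2-fold counts and the SDs were tested on simulated data with a constant SD at all levels and planted differences larger than those of the member rows. The 1.5-fold counts and a SD that changes with level were not tested this way.

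The 10 members, the lists, the bright rule and the alternatives were chosen with earlier results of these data known. Named genes were all members, up to 4 bright genes of each list with the largest differences, and list genes past 2-fold. The others (KRT19, CFTR, GSK3A, DVL1, DVL3, CDH1, CCND1, SP8, APCDD1 and the other duct markers) were picked with their values in view. Other settings tried were centring, quantile normalization and loess on mean level (limma 3.58.1), 16 added before log2, a floor at the random probes, level filters, brightest rows, and removal of a loess (fraction 0.3) on span, chosen after seeing the data. Software was R 4.3.3 and Python 3.11.15 with pandas 2.3.3, numpy 2.4.6 and matplotlib 3.10.9.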

Additional observations from a re-analysis of the deposited data

How the results depend on the processing

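No member row reached 2-fold under any of the 8 alternatives. For some of these that was fixed in advance. The floor at the random probes left the member rows as they were, since all 18 lay above it. The bright rows and the brightest row of each gene are parts of the 18 rows, so their counts could not rise. The 1 row past 1.5-fold, LEF1 AF294627, left no such row (0) among rows at or above the median level and among the brightest row of each gene, since both settings omit it. The median over the 18 rows was -0.053 with the span trend removed and between -0.114 and -0.108 under the other scalings. It was -0.108 over the 16 bright rows and -0.095 over the brightest row of each gene. None of 108 member row values moved by as much as the SD of rows of like level, and CTNNB1 alone changed sign (0.00 with the span trend removed). The values under the floor at the random probes are among the 108 and could not move. List medians were taken as moved where they shifted by more than 0.05 or changed side of 0, which 16 of 63 did. With the brightest row of each gene they were -0.25 for destruction complex partners, -0.086 for the receptor relay, -0.12 for junction partners, 0.0051 for coactivators, -0.037 for repressors, -0.058 for the MYC network and -0.0013 for MYC targets. Above the 75th percentile of level they were -0.037 for destruction complex partners, 0.11 for the relay, -0.078 for junction partners and -0.023 for repressors. With no filter on level they were 0.11 for the relay, -0.071 for junction partners and -0.056 for repressors. With the span trend removed they were 0.070 for junction partners and 0.0056 for coactivators. The causes were not tested. No paired analysis was possible because there was a single array per treatment, so none could be left out either.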

Other observations

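Other rows of the arrays overlap the hg18 spans of the 10 genes but carry another name or none, and entered no count of the members. LOC644985 (chromosome 4, 109308302 to 109313415) overlaps the 5′ side of LEF1, which is on the minus strand, and read 9.54 and, after clofibrate, 8.82, which is -0.72 apart, where rows of like level had an SD of 0.32. LOC644980, within LEF1 (109306987 to 109308247), read 9.06 and 9.08, a difference of 0.02. The row M13930, which overlaps MYC on chromosome 8 (128816861 to 128821905) and has no symbol in the files, read 11.12 and 11.01, a difference of -0.11 beside -0.16 for the MYC row. BC006295, over AXIN2 (chromosome 17, 60955146 to 60986906), read 6.89 and 7.43, a difference of 0.55 where the SD was 0.54. AK126260, within GSK3B (chromosome 3, 121035414 to 121037016), read 5.73 and 6.30, a difference of 0.58 where the SD was 0.61. These rows were looked up after the members' values had been seen.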
